A study of Mus musculus with 8 samples.

Results

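The genes described here are 10 through which p53 is known or proposed to act on metabolism, on the Akt and mTOR kinases and on DNA repair, followed in the embryonic brain after loss of the repressor REST. They were taken by name, *Phlda3*, *Sesn1*, *Sesn2*, *Sesn3*, *Tigar*, *Dram1*, *Ddb2*, *Rrm2b*, *Polk* and *Ercc5*, and all probe sets that the array annotation gives to each of them alone were used. These were 23 of the 45037 probe sets tested, and 10 of 18193 genes. RNA came from the brain at E12.5, of *Cre+, Rest GTi/GTi* embryos (4 arrays) and of *Rest GTi/GTi* littermates without Cre, the controls (4 arrays), on a C57/BL6 background, and was hybridised to Affymetrix mouse genome arrays. Both genotypes carry 2 copies of the *GTi* allele, an inverted gene trap in a *Rest* intron that leaves *Rest* working. In *Cre+, Rest GTi/GTi* embryos a *Nestin Cre* transgene turns the trap back, so that transcription of *Rest* ends before its coding exons in nestin+ neural progenitors and the cells they give rise to, while other cells of the brain keep the allele as it is in controls. Cre and REST loss go together on every array and cannot be told apart, and whether an array holds 1 embryo or several is not stated. The p-values measure the spread between these arrays.

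p53 is a transcription factor that is stabilised when DNA is damaged or a cell is otherwise stressed. Besides genes that stop the cell cycle or kill the cell, it can turn on a milder set. *Phlda3* encodes a small protein of little more than a pleckstrin homology domain, which competes with the kinase Akt for membrane lipids and so lowers Akt signalling. The sestrins (*Sesn1*, *Sesn2* and *Sesn3*) hold back the growth kinase complex mTORC1 through the GATOR complexes and AMPK. *Tigar* lowers a sugar phosphate that drives glycolysis and so sends glucose into the pentose phosphate pathway, and *Dram1* is a lysosomal membrane protein of autophagy; both were first described as p53 targets in human cells. *Ddb2* recognises ultraviolet damage, *Ercc5* (XPG) cuts the damaged strand in nucleotide excision repair, *Rrm2b* is a ribonucleotide reductase subunit that makes deoxynucleotides outside S phase, and *Polk* is a polymerase that copies past damaged bases. In the developing brain DNA damage in cycling progenitors is a well known trigger of p53.

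The 250 bases before the transcription start are shown for *Phlda3* and *Sesn2*, the genes whose genotypes separated upward, and for the downstream of 2 *Sesn1* starts, a sestrin whose genotypes overlapped and whose promoter holds a match to the p53 decamer. They are from RefSeq on mouse build GRCm38.p6, read 5′ to 3′ on the strand of the gene, at chr1:135765835-135766084 (plus strand, *Phlda3*), chr4:132510457-132510706 (minus strand, *Sesn2*) and chr10:41887189-41887438 (plus strand, *Sesn1*). Capitals mark the GC box (GGGCGG on either strand), the CCAAT box (CCAAT on either strand) and the p53 decamer.
Phlda3: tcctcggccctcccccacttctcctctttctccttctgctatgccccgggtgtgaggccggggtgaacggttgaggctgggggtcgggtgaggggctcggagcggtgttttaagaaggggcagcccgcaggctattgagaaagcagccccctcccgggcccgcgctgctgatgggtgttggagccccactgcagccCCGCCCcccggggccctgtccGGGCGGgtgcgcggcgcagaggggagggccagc
Sesn2: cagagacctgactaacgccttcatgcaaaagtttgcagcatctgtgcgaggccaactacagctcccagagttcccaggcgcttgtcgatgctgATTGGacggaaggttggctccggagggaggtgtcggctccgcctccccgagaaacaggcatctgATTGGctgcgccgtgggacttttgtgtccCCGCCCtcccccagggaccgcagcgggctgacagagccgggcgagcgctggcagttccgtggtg
Sesn1: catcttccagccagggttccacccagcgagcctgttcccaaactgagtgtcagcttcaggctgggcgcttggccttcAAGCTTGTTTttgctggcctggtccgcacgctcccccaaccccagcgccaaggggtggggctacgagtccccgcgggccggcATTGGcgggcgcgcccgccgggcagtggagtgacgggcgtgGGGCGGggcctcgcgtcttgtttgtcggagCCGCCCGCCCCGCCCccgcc

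The *Phlda3* window has GC boxes that begin 54 and 33 bases before the start, and a GC content of 71.2%. The *Sesn2* window has CCAAT boxes in reverse (ATTGG) at 157 and 93 bases and a GC box at 64 bases before the start. Neither window holds a p53 decamer without mismatch. In *Sesn1* the decamer AAGCTTGTTT begins 173 bases before the start, followed by a CCAAT box at 91 bases and GC boxes at 50, 20, 16 and 11 bases, of which the last 3 overlap in 1 run. RefSeq promoters were found for 8 of the 10 genes, 10 promoters in all. The p53 decamer was in 2 of these (the *Sesn1* one above, and GAACTAGCCT at 231 bases before 1 of 2 *Polk* starts), and 7.13% of 32851 promoters of the same length hold one. The CCAAT box was in 6 (33.8% of all promoters) and the GC box in 8 (32.7%). The amino acid response motif TGATGNAA, on either strand, was in 0 (3.45%). These are letter matches in a short window, and a p53 site further away or in an intron was not looked for.

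The arrays differed in more than their label. The targeted gene, *Rest*, read 163.1, 216.7, 84.4 and 133.7 under the *Cre+, Rest GTi/GTi* label, against 170.1, 271.8, 211.1 and 198.3 under the control label, on its brightest probe set. The genotypes overlapped: the array with the label of *Cre+, Rest GTi/GTi* replicate 2 exceeded all controls but 1, and without it the log2 fold change was 1.05 for *Phlda3* and 0.81 for *Sesn2*, the genes whose changes are described first below. How its probes sit in relation to the trap is not known here, and genotypes are named by their labels throughout. *Eif2s3y*, on the Y chromosome, read 5.7 and 0.2 on control replicates 2 and 3 and at least 627.2 on the other 6 arrays, so that male signal was found on every *Cre+, Rest GTi/GTi* array and on 2 of the controls. A list of 14 mesenchyme markers summed to between 861 and 15442 on *Cre+, Rest GTi/GTi* arrays, with replicates 1 and 2 high, and to between 781 and 1700 on controls. A list of 18 microglia and macrophage markers summed to between 3155 and 3452 on *Cre+, Rest GTi/GTi* arrays and to between 1124 and 1343 on controls. Of its genes 10 were called higher, when 0.214% of all genes were called higher and 0.011% lower. None of these 18 read 0 on an array, and 1 of them, *Itgam* (CD11b), stayed at or below 12.3 on all arrays. The markers of neural progenitors and of neurons had 0 genes called by limma (0 at an unadjusted p under 0.05, 0 by the methods' t-test), with sums of 33220 to 37191 and 31482 to 44486 on *Cre+, Rest GTi/GTi* arrays against 36026 to 37148 and 37274 to 41599 on controls. In brain tissue taken as a whole, more cells of a type and more RNA per cell cannot be told apart.

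The values are normalized intensities per probe set, in arbitrary units, made comparable by giving all arrays 1 distribution. Tests were run with limma on log2 of the intensity plus 16, adjusted by Benjamini-Hochberg over all probe sets, and a gene was called at an adjusted p under 0.05. A fold change on this scale is smaller than the ratio of intensities, most of all for dim probe sets.

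*Phlda3*, the Akt repressor, was the only one of the 10 genes to be called. Its single probe set read 328.4, 254.8, 270.9 and 280.8 in *Cre+, Rest GTi/GTi* brain, against 157.5, 139.7, 139.0 and 103.1 in controls. Every *Cre+, Rest GTi/GTi* array lay above every control, with replicate 1 the highest and control replicate 4 the lowest. The mean was 284 ± 31.7 in *Cre+, Rest GTi/GTi* embryos, against 135 ± 22.8 in controls (SD, n = 4 arrays each), a ratio of 2.10. On the log2 scale this was 1.00 (standard error 0.13, 95% interval 0.71 to 1.29, adjusted p = 0.0325 from limma). On the deposited values, with no scaling, the arrays ran from 201 to 397 in *Cre+, Rest GTi/GTi* embryos, against from 109.4 to 154 in controls, and the genotypes were separate there too. The size of the change was steady, between 0.86 and 1.08 under the alternatives tried, while the call was not: without any 1 of the 4 *Cre+, Rest GTi/GTi* arrays or of control replicates 1, 2 and 3 the adjusted p lay between 0.0588 and 0.123, and without control replicate 4 it was 0.0466. Using *Cre+, Rest GTi/GTi* replicates 3 and 4 by themselves, which lack the mesenchyme signal but are the arrays highest for hindbrain Hox markers, the log2 fold change was 0.97 (adjusted p = 0.277 from limma). Against the 2 male controls it was 1.05 (0.326). The first setting called 0 of all 18193 genes and the second 7, so a lost call there says little about *Phlda3*. The fits without 1 array that lost the call still called 21 to 31 of all genes higher, where the fit on all arrays called 39. Scaling to a common median called 37 higher and not *Phlda3* (adjusted p = 0.0525 from limma).

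*Phlda3* has a pair of relatives on the array. *Phlda1*, another pleckstrin homology protein, read 601.0, 733.7, 730.5 and 662.4 in *Cre+, Rest GTi/GTi* embryos, against 758.5, 514.2, 496.0 and 617.7 in controls, and the genotypes overlapped (log2 fold change 0.20, standard error 0.14, adjusted p = 0.844). *Phlda2*, an imprinted gene of the placenta, was dim, between 2.8 and 22.3 in *Cre+, Rest GTi/GTi* embryos, against between 1.2 and 6.0 in controls. The change of *Phlda3* exceeded that of *Phlda1*, each with 1 probe set, by 0.79 on the log2 scale when the genes were set against each other within each array. The two-sided exact permutation p was 0.0286, the smallest that 4 arrays against 4 can give, and was 0.0286 after adjustment over the 3 such differences tested here. This test and the next were chosen after the values were seen.

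**Figure D1:**
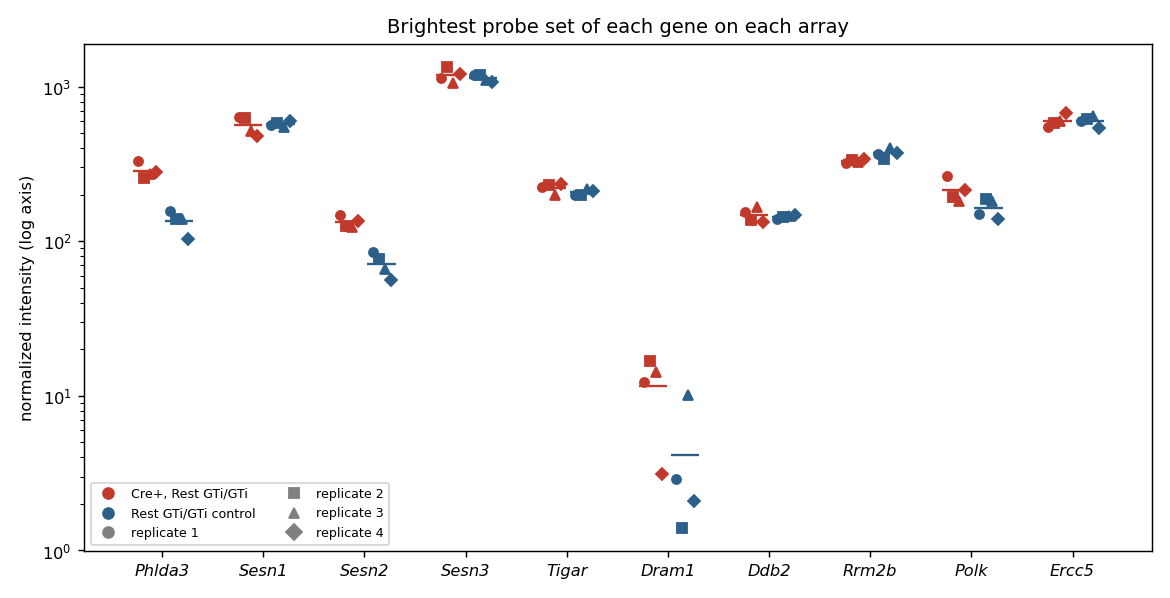
Normalized intensity (log axis) of the brightest probe set of each of the 10 genes, 1 point per array, with *Cre+, Rest GTi/GTi* in red left of control in blue and the mean of each genotype as a line. *Phlda3* (284 against 135) and *Sesn2* (133 against 71.2) separate upward and *Rrm2b* (330 against 370) narrowly downward; the other 7 overlap.

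*Sesn2* was the sestrin whose genotypes lay apart on both of its probe sets. Its brightest probe set read 147.9, 126.0, 123.8 and 135.1 in *Cre+, Rest GTi/GTi* embryos, against 85.2, 76.9, 66.2 and 56.4 in controls. The genotypes did not overlap. The mean was 133 ± 11.0 in *Cre+, Rest GTi/GTi* embryos, against 71.2 ± 12.55 in controls (SD, n = 4 arrays each), a ratio of 1.87. The log2 fold change of 0.78 (standard error 0.11, 95% interval 0.52 to 1.04) missed the threshold, at an adjusted p of 0.0628 from limma. A second probe set read 89.1, 65.6, 78.2 and 115.3 in *Cre+, Rest GTi/GTi* embryos, against 27.7, 63.7, 52.4 and 53.4 in controls, and gave 0.67 on the log2 scale (standard error 0.21, adjusted p = 0.566). Here too every *Cre+, Rest GTi/GTi* array lay above every control, although by less than 2 units between 65.6 and 63.7. Under 4 alternatives the brightest probe set, or the mean of both, was called, and the adjusted p ran from 0.0364 to 0.67 over the alternatives tried.

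*Sesn1*, the sestrin first found as a p53 target, was read by 4 probe sets whose changes differed in sign, and none was called. The brightest read 635.3, 630.7, 512.3 and 477.0 in *Cre+, Rest GTi/GTi* embryos, against 567.3, 580.2, 550.7 and 598.1 in controls, where the 4 controls lay inside the range of the other genotype (log2 fold change -0.04, standard error 0.10). A second read 241.8, 229.4, 285.9 and 203.1 in *Cre+, Rest GTi/GTi* embryos, against 210.8, 168.7, 142.0 and 220.6 in controls (log2 fold change 0.35, standard error 0.15, adjusted p = 0.717). On that probe set 3 of 4 *Cre+, Rest GTi/GTi* arrays lay above every control. The change there was 0.14 against the 2 male controls alone. The remaining probe sets gave 0.07 (standard error 0.21) and -0.13 (standard error 0.13). Which transcripts each probe set reads was not examined.

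*Sesn3*, which FoxO factors turn on, read 1143.9, 1338.0, 1053.4 and 1211.8 in *Cre+, Rest GTi/GTi* embryos, against 1196.1, 1182.2, 1100.5 and 1063.1 in controls. The genotypes overlapped, and the log2 fold change of 0.06 (standard error 0.09) had a 95% interval of -0.14 to 0.26. Its other probe set gave 0.01 (standard error 0.07). Within arrays, and on the brightest probe set of each gene, the change of *Sesn2* exceeded that of *Sesn1* by 0.82 and that of *Sesn3* by 0.73 on the log2 scale, each with a two-sided exact permutation p of 0.0286 (0.0286 adjusted over the 3 differences), the smallest this design allows. The size and the p depended on the probe set. Over all 8 pairs of a *Sesn2* and a *Sesn1* probe set the difference ran from 0.32 to 0.92, and its exact permutation p from 0.0286 to 0.371. The brightest *Sesn2* probe set against the *Sesn1* probe sets next in brightness gave 0.43 and 0.71, each with an exact permutation p of 0.0857. Over the 4 pairs with *Sesn3* the difference ran from 0.61 to 0.78, with an exact permutation p from 0.0286 to 0.114. Adjusted over all 13 pairs of probe sets, those with *Phlda3* included, no exact permutation p was below 0.062.

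**Figure D2:**
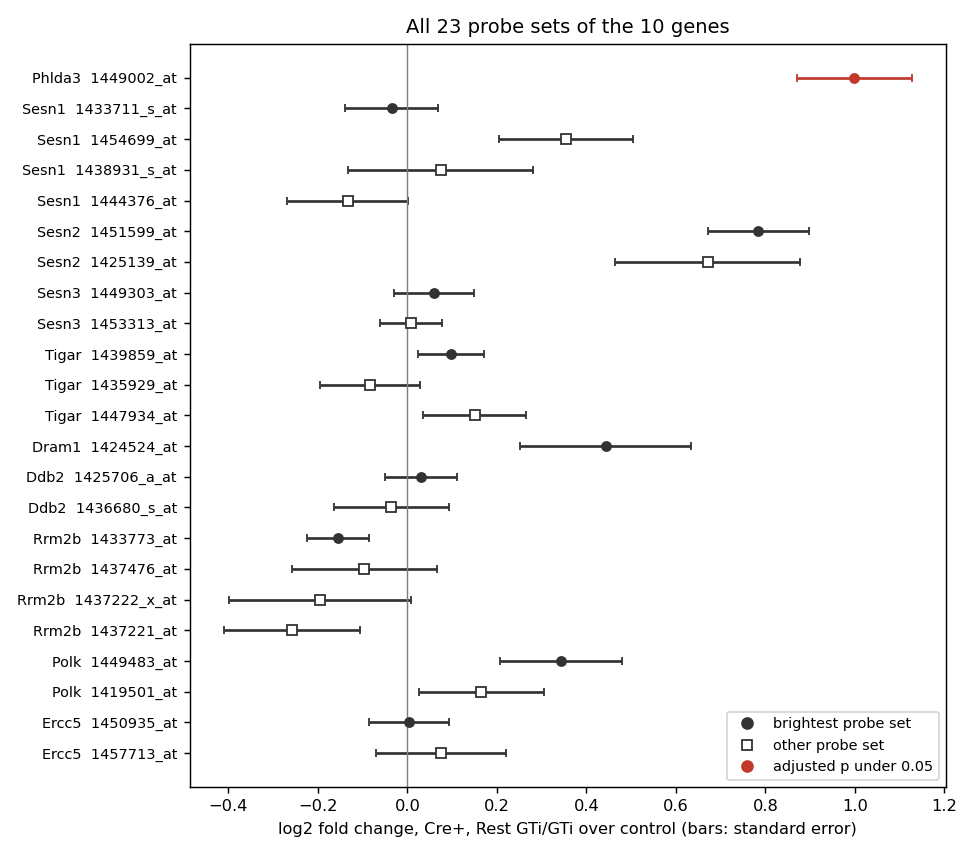
Log2 fold change, *Cre+, Rest GTi/GTi* over control, of all 23 probe sets with standard errors, from limma on 4 arrays per genotype (filled, the brightest probe set of a gene; red, adjusted p under 0.05). *Phlda3* at 1.00 and both *Sesn2* probe sets at 0.78 and 0.67 lie to the right of the rest, and all 4 *Rrm2b* probe sets lie left of 0.

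The genes of glucose use and autophagy were not called. *Tigar* read 224.0, 229.6, 200.1 and 235.3 in *Cre+, Rest GTi/GTi* embryos, against 198.1, 199.8, 218.2 and 210.2 in controls on its brightest probe set. Of the 4 *Cre+, Rest GTi/GTi* arrays 3 lay just above the highest control, and the log2 fold change was 0.10 (standard error 0.07, 95% interval -0.07 to 0.26, adjusted p = 0.868). The other *Tigar* probe sets gave -0.08 (standard error 0.11) and 0.15 (standard error 0.12). *Dram1* was close to the bottom of the scale, at 12.3, 16.7, 14.2 and 3.1 in *Cre+, Rest GTi/GTi* embryos, against 2.9, 1.4, 10.1 and 2.1 in controls. The genotypes overlapped, and the change of 0.44 on the log2 scale (standard error 0.19, adjusted p = 0.724) became 1.36 with 1 and 0.18 with 50 added in place of 16, so it has no settled size.

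The genes of nucleotide supply and repair were not called either. *Rrm2b* read 322.7, 334.8, 323.5 and 340.2 in *Cre+, Rest GTi/GTi* embryos, against 366.0, 341.0, 400.8 and 373.1 in controls. All *Cre+, Rest GTi/GTi* arrays lay below all controls, although the nearest pair, 340.2 and 341.0, was less than 1 unit apart. The mean was 330 ± 8.63 in *Cre+, Rest GTi/GTi* embryos, against 370 ± 24.6 in controls (SD, n = 4 arrays each), or -0.16 on the log2 scale (standard error 0.07, 95% interval -0.31 to 0.003, adjusted p = 0.735). The other 3 probe sets of *Rrm2b* gave -0.10, -0.20 and -0.26, with standard errors of 0.16, 0.20 and 0.15, and overlapped between genotypes, 2 of them at mean intensities of 9.38 and 15.2 in *Cre+, Rest GTi/GTi* embryos, against 14.8 and 20.5 in controls.

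*Polk* read 264.6, 192.2, 181.3 and 215.6 in *Cre+, Rest GTi/GTi* embryos, against 149.3, 186.7, 182.8 and 138.9 in controls. *Cre+, Rest GTi/GTi* replicate 3 lay among the controls and the other 3 arrays lay above them, and the change was 0.34 on the log2 scale (standard error 0.14, adjusted p = 0.69). Its dimmer probe set gave 0.17 (standard error 0.14).

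The damage recognition gene *Ddb2* read 154.7, 137.8, 166.0 and 133.2 in *Cre+, Rest GTi/GTi* embryos, against 139.6, 144.4, 145.2 and 147.1 in controls. The controls lay within the range of the *Cre+, Rest GTi/GTi* arrays, and the log2 fold change was 0.03 (standard error 0.08, 95% interval -0.15 to 0.21), with -0.04 (standard error 0.13) on a second probe set. The nuclease gene *Ercc5* read 551.4, 578.9, 603.2 and 677.0 in *Cre+, Rest GTi/GTi* embryos, against 601.6, 620.5, 643.4 and 537.5 in controls. Its log2 fold change was 0.003 (standard error 0.09, 95% interval -0.20 to 0.21), and 0.08 (standard error 0.15) on a dim second probe set. Both intervals lay well below the change of *Phlda3*.

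Counted together, 1 of the 10 genes was called higher, when 0.214% of all genes were, and 0 were called lower, when 0.011% of all genes were. At an unadjusted p under 0.05 there were 4 of 10, and 1268 of 18193 genes. The 4 include *Dram1*, close to the bottom of the scale (unadjusted p = 0.0483 from limma, 0.0607 with 1 added and 0.0568 with 50). The methods' t-test called 0 of the 10, and of all genes 14 with equal variances and 0 with unequal variances. Of the 23 probe sets 1 was called higher, against 0.133% of all probe sets. *Phlda3* and *Sesn2* lay above every control on every *Cre+, Rest GTi/GTi* array, 2 of 10 genes where 2.48% of all genes did, and *Rrm2b* below, 1 of 10 where 2.15% of all genes did. The 10 genes were chosen with earlier results of these data known, so these shares are a description and not a test. The log2 fold change was above 0 for 8 of the 10 genes, the dim *Dram1* among them, and for 49.5% of all genes. Its median was 0.08 over the 10 genes, 0.04 over the 8 without *Phlda3* and *Sesn2*, and -0.001 over all genes.

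**Figure D3:**
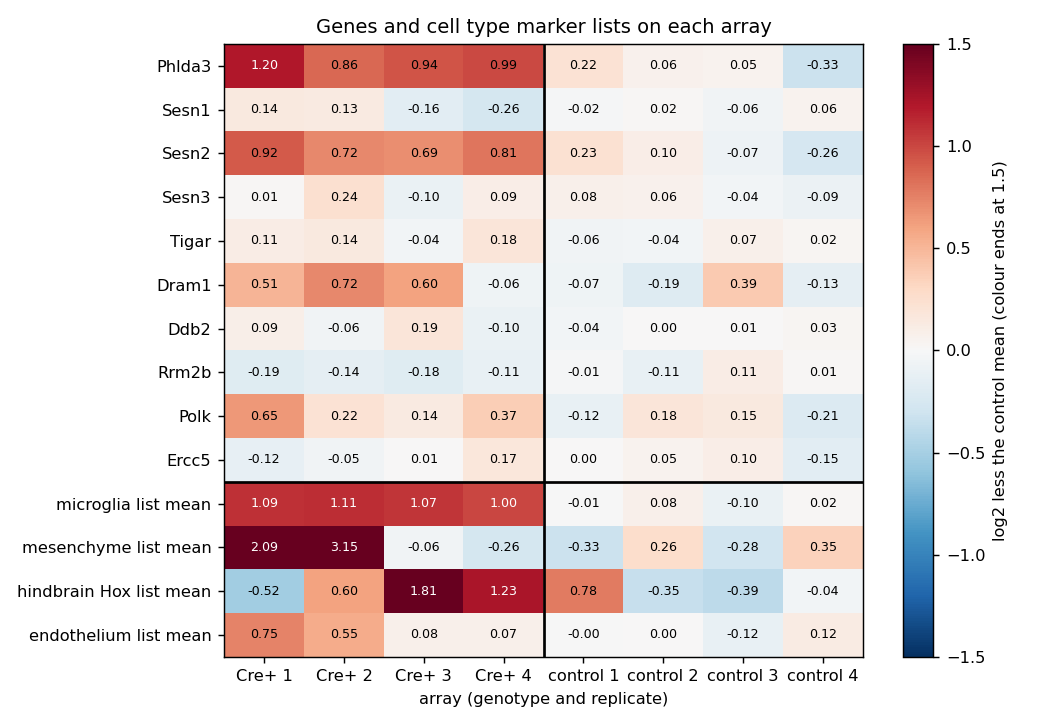
Log2 level on each array less the control mean, for the 10 genes and for the mean of 4 cell type marker lists, with the 4 *Cre+, Rest GTi/GTi* arrays left of the 4 controls; colour ends at 1.5 and the value is printed in each cell. *Phlda3* and *Sesn2* are near level over the 4 *Cre+, Rest GTi/GTi* arrays, as is the microglia list, while the mesenchyme list is high on replicates 1 and 2 alone. The hindbrain Hox list is highest on *Cre+, Rest GTi/GTi* replicates 3 and 4, with 0.60 on replicate 2 and 0.78 on control replicate 1.

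Across the *Cre+, Rest GTi/GTi* arrays *Phlda3* stood at 1.20, 0.86, 0.94 and 0.99 and *Sesn2* at 0.92, 0.72, 0.69 and 0.81 on the log2 scale less the control mean. Both were highest on replicate 1, and both were lowest on control replicate 4 (-0.33 for *Phlda3* and -0.26 for *Sesn2*). The mesenchyme list had means of 2.09, 3.15, -0.06 and -0.26 on the same 4 *Cre+, Rest GTi/GTi* arrays, between -0.33 and 0.35 on controls. The hindbrain Hox list had means of -0.52, 0.60, 1.81 and 1.23 on *Cre+, Rest GTi/GTi* arrays, and between -0.39 and 0.78 on controls. The endothelium list had means of 0.75, 0.55, 0.08 and 0.07 on *Cre+, Rest GTi/GTi* arrays and between -0.12 and 0.12 on controls, and the erythroid list 0.69, 0.02, -0.29 and 0.03 on *Cre+, Rest GTi/GTi* arrays and between -0.22 and 0.16 on controls. Both of these lists were highest on replicate 1, as *Phlda3* and *Sesn2* were, and the erythroid list ordered the 4 *Cre+, Rest GTi/GTi* arrays as *Sesn2* did. On controls the erythroid list was highest on replicate 4, where *Sesn2* was lowest. The part of these lists in the change of *Phlda3* and *Sesn2* was not tested. Limma called 0.214% of all genes higher and 0.011% lower. In the mesenchyme, Hox, endothelium and erythroid lists it called 0 genes (1, 0, 3 and 0 at an unadjusted p under 0.05). The methods' t-test called 0 there, but only 14 (equal variances) or 0 (unequal variances) of all 18193 genes. The microglia list had means of 1.09, 1.11, 1.07 and 1.00 on *Cre+, Rest GTi/GTi* arrays and between -0.10 and 0.08 on controls, so that it moved with the genotype as *Phlda3* and *Sesn2* did. Its part in their change was not tested.

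The genes whose profile over the 8 arrays was nearest to these were taken by the root mean square difference of their log2 levels, among 13569 genes. Nearest to *Phlda3* were *Lcp2*, a signalling adaptor of blood cells (0.146), *Ang*, a secreted ribonuclease (0.162), *Sesn2* (0.165), *Srgn*, a granule proteoglycan of blood cells (0.185), and *Wdfy4*, known in dendritic cells (0.196). Nearest to *Sesn2* were *Lcp2* (0.131), *Ccng1*, a p53 target (0.143), *Nckap1l*, an actin regulator of blood cells (0.152), *Ctsb*, a lysosomal protease (0.153), and *Phlda3* (0.165). *Lcp2* and *Wdfy4* were dim in controls, at 7.8 to 17.2 and at 1.9 to 10.7, close to or below the added constant. Their ratios of intensities were 2.93 and 6.73, against 2.10 for *Phlda3* and 1.87 for *Sesn2*. The added constant makes the log2 changes of such dim genes smaller, and their nearness under another constant was not tested. The ranking is a description over 8 arrays that share 1 contrast.

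Other p53 targets were taken by role from lists of known target genes. Among genes of the p53 family and of cell cycle arrest and feedback, 2 of 19 measured were called higher and 0 lower (6 at an unadjusted p under 0.05, median log2 fold change 0.04). Of these 19 genes, 11 lay above 0 and 8 below, and in 4 the lowest *Cre+, Rest GTi/GTi* array exceeded the highest control. Of all genes, limma called 0.214% higher and 0.011% lower, and 1268 of 18193 had an unadjusted p under 0.05. Of all genes, 49.5% lay above 0 and 2.48% had genotypes apart in that direction. *Cdkn1a*, the cyclin kinase inhibitor p21, read 446.4, 439.1, 383.5 and 356.1 in *Cre+, Rest GTi/GTi* embryos, against 175.9, 145.2, 168.3 and 168.2 in controls, a change of 1.22 on the log2 scale (standard error 0.10, adjusted p = 0.00312 from limma). *Ccng1*, the p53 feedback gene cyclin G1, read 1169.8, 1318.5, 1280.6 and 1222.5 in *Cre+, Rest GTi/GTi* embryos, against 861.3, 649.7, 642.5 and 620.2 in controls (0.84, standard error 0.11, adjusted p = 0.0366). For both the genotypes lay well apart. When each of the 8 arrays was left out in turn, *Cdkn1a* stayed called (adjusted p up to 0.0196) and *Ccng1* was called only without control replicate 1 (0.0121, otherwise up to 0.154).

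Among pro-apoptotic p53 targets 2 of 15 measured were called higher and 0 lower (6 at an unadjusted p under 0.05, median log2 fold change 0.17). Of these 15 genes, 13 lay above 0 and 2 below, and in 4 the genotypes lay apart in the same direction. Over all genes, 0.214% were called higher by limma, 1268 of 18193 had an unadjusted p under 0.05, 49.5% lay above 0 and 2.48% lay apart upward. *Eda2r*, a member of the tumour necrosis factor receptor family, read 102.3, 87.4, 100 and 97.1 in *Cre+, Rest GTi/GTi* embryos, against 19.3, 34.7, 42.6 and 18.7 in controls (1.37, standard error 0.17, adjusted p = 0.03). *Pmaip1* (Noxa), an inhibitor of survival proteins, read 76.9, 47.0, 46.8 and 48.5 in *Cre+, Rest GTi/GTi* embryos, against 15.1, 15.1, 14.2 and 22.6 in controls (1.10, standard error 0.15, adjusted p = 0.0399). *Cdkn1a* was also called by the methods' t-test with equal variances, and *Ccng1*, *Eda2r* and *Pmaip1* were not. With each array left out in turn, *Eda2r* was called only without control replicate 3 (0.0267, otherwise up to 0.132) and *Pmaip1* only without *Cre+, Rest GTi/GTi* replicate 1 (0.0321, otherwise up to 0.161). With 16 added, the change of *Phlda3* stood between those of *Ccng1* and *Pmaip1*, and a difference between these genes was not tested. The controls of *Pmaip1* lay near 16, and its change ran from 0.64 to 1.64 over the alternatives tried. Its place in this order is therefore not settled.

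**Figure D4:**
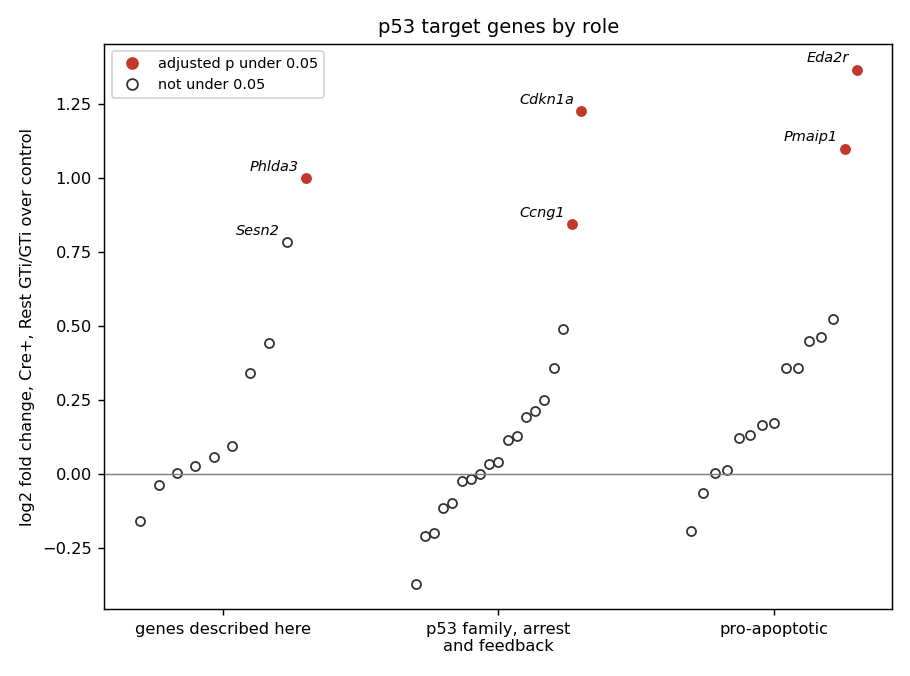
Log2 fold change, *Cre+, Rest GTi/GTi* over control, of p53 targets by role, 1 point per gene and ordered within a role; red points have an adjusted p under 0.05 in limma. In each role 1 or 2 genes were called (*Phlda3* at 1.00, *Cdkn1a* at 1.22, *Ccng1* at 0.84, *Eda2r* at 1.37 and *Pmaip1* at 1.10) and 0 were called lower. Of all genes, 0.214% were called higher.

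The pathways on which the 10 genes act showed no called gene. Of all genes, limma called 0.214% higher and 0.011% lower, and 1268 of 18193 had an unadjusted p under 0.05. A count of 0 in lists of this size, here and below, therefore says little about a pathway. Of all genes, 49.5% lay above 0. In the Akt, TSC and mTOR complexes 0 of 24 measured genes were called by limma (0 at an unadjusted p under 0.05), 10 lay above 0 and 14 below, and the median log2 fold change was -0.02. The smallest p values belonged to *Ddit4l* (0.24, standard error 0.12), a relative of the mTORC1 inhibitor Redd1, and *Eif4ebp1* (0.50, standard error 0.26), the translation repressor that mTORC1 phosphorylates. In the GATOR complexes and Rag GTPases, through which sestrins act, 0 of 16 were called (0 unadjusted), 5 lay above 0 and 11 below, with a median of -0.05. The subunits *Wdr59* and *Nprl3* gave -0.29 (standard error 0.13) and -0.17 (standard error 0.09). These are RNA levels, and the phosphorylation by which Akt and mTOR work was not measured.

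Among FoxO, Keap1 and peroxiredoxin partners of the sestrins 0 of 16 were called (3 unadjusted, median 0.07). *Foxo3*, a FoxO factor, read 308.1, 438.1, 362.4 and 360.9 in *Cre+, Rest GTi/GTi* embryos, against 302.9, 311.5, 177.7 and 193.5 in controls (0.58, standard error 0.20, adjusted p = 0.621), and *Hmox1*, a heme-degrading enzyme that Nrf2 turns on, gave 0.43 (standard error 0.15). *Sesn2* is also turned on by ATF4, the factor of the integrated stress response. Of 13 genes of that response, *Sesn2* among them, 0 were called (2 unadjusted), 10 lay above 0 and 3 below, with a median of 0.09. *Asns*, which makes asparagine, gave 0.23 (standard error 0.09), and *Psat1*, of serine synthesis, gave 0.15 (standard error 0.08). Both values were smaller than the 0.78 of *Sesn2*, and that difference was not tested.

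In glycolysis and the pentose phosphate pathway, where *Tigar* acts, 0 of 22 genes were called (0 unadjusted), 16 lay above 0 and 6 below, with a median of 0.07. *Aldoa* and *Tkt*, an enzyme of each pathway, both gave 0.14 (standard errors 0.07 and 0.08). In autophagy 0 of 25 were called (1 unadjusted, median -0.01), and *Ulk1*, the kinase that starts it, gave -0.21 (standard error 0.09) and *Atg7*, an activating enzyme, 0.20 (standard error 0.09). In nucleotide excision repair 0 of 24 were called (1 unadjusted, median 0.001), and *Ercc6*, of transcription-coupled repair, gave 0.24 (standard error 0.09) and *Ddb1*, the partner of *Ddb2*, 0.08 (standard error 0.07). The median of the excision repair list lay near 0, as did the changes of *Ddb2* and *Ercc5*, which act in the same pathway.

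In deoxynucleotide supply 0 of 15 were called (0 unadjusted, median 0.02), with 0.27 (standard error 0.13) for *Samhd1*, which breaks deoxynucleotides down, and -0.22 (standard error 0.12) for *Tyms*, which makes thymidylate. In translesion synthesis 0 of 17 were called (1 unadjusted, median 0.002). *Poli*, a polymerase of the same family as *Polk*, gave -0.26 (standard error 0.08, adjusted p = 0.593), and *Primpol*, a primase that restarts stalled forks, -0.16 (standard error 0.08). The methods' t-test called 0 genes in each of these 9 lists. Of all 18193 genes it called 14 with equal variances and 0 with unequal variances, so these counts of 0 add little.

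**Figure D5:**
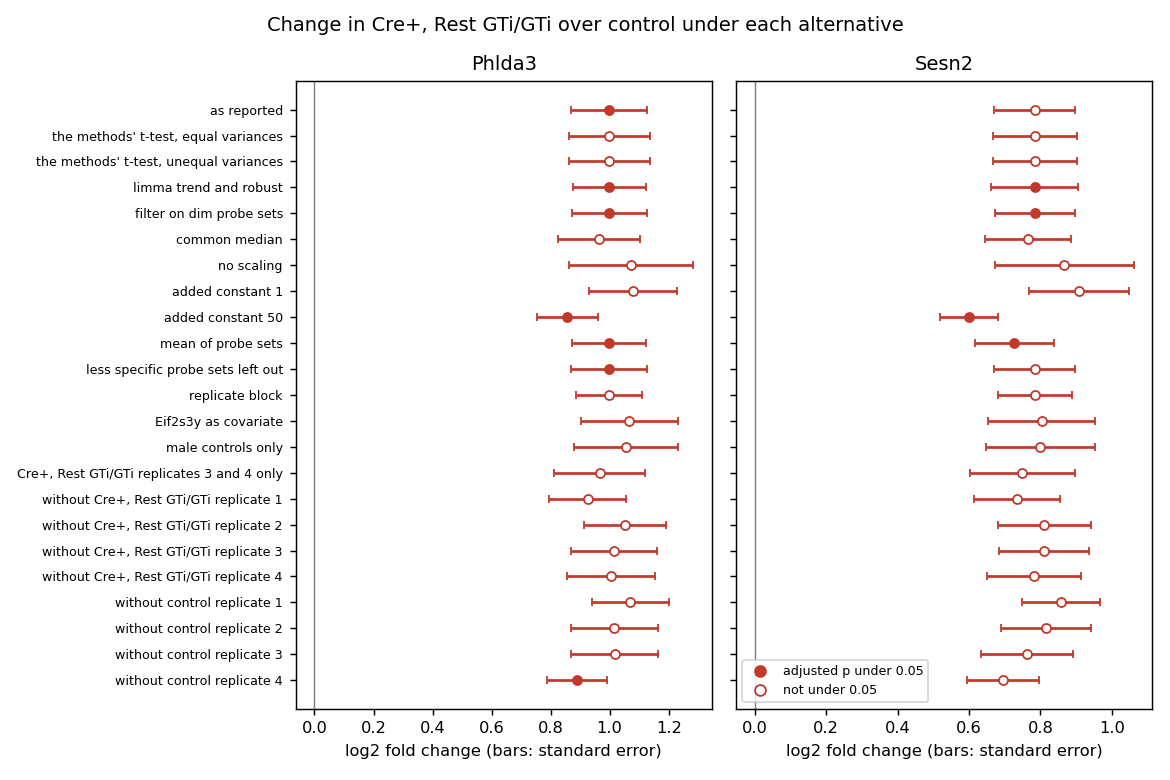
Log2 fold change, *Cre+, Rest GTi/GTi* over control, with standard error of *Phlda3* (left) and of *Sesn2* (right, brightest probe set) as reported and under each alternative, filled where the adjusted p was under 0.05. The changes stay between 0.86 and 1.08 for *Phlda3* and between 0.60 and 0.91 for *Sesn2*; *Phlda3* was called under 6 of 22 alternatives and *Sesn2* under 4 of 22.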

How the data were processed

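Gene expression was measured in E12.5 brain on 4 *Cre+, Rest GTi/GTi* and 4 control arrays, grouped by their labels. Per the paper's methods, the authors used RMA, the log2 scale and t-tests adjusted by Benjamini-Hochberg. The deposited values are intensities per probe set on a linear scale that differ in distribution between arrays, and which step made them is not stated. Their medians ran from 40.9 to 68, and the number of arrays limits the precision. The table has 45101 probe sets, and the 64 Affymetrix controls among them were not tested. A single gene is annotated to 34945 of the rest, more than 1 gene to 932 and no gene to 9160. Arrays were quantile normalized, 16 was added and log2 taken, and *Cre+, Rest GTi/GTi* minus control was tested with limma 3.58.1 (lmFit and eBayes) in R 4.3.3 over all probe sets, called at 0.05. The mean of 30.6% of probe sets lay below 16. A gene is represented by its brightest probe set. The fit was tested on simulated data. For *Phlda3* and *Sesn2* the 5 genes with the nearest profile are named too.

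The members and lists were chosen with earlier results of these data known. All 10 genes are named; of the other lists, up to 4 called genes with the smallest p, or else the 2 with the smallest p. The alternatives tried were t-tests (the methods' test, assuming equal or unequal variances), robust limma with a trend, only probe sets with a mean of at least 16, scaling to a common median or not at all, constants of 1 and 50, the mean of probe sets, leaving out less specific probe sets, a replicate block, *Eif2s3y* as covariate, male controls, *Cre+, Rest GTi/GTi* replicates 3 and 4 alone, and leaving out each array. Promoters of genes other than *Phlda3*, *Sesn2* and *Rrm2b*, motifs other than the p53 decamer, *Itgam*, and the differences between genes within arrays, were added after seeing the data. Genes with no probe set of their own in the table are not analysed here.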

Additional observations from a re-analysis of the deposited data

Results flagged for a closer look

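Among 46 groups of 4 arrays (23 probe sets in 2 genotypes), 1 held an array far from the others. On the dimmest *Sesn1* probe set, control replicate 4 read 50.2 and the other 3 controls lay between 35 and 36, while the *Cre+, Rest GTi/GTi* arrays read 27.4, 27.7, 41.6 and 40.7. Chance alone can set an array apart among so many groups, and how often it would do so here was not tested. Groups on the same arrays are not independent.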

How the results depend on the processing

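*Phlda3* kept its direction under all 22 alternatives and its call under 6; *Sesn2* kept its direction under 22 and was called under 4, those that gave 2 genes. The count of genes called higher, 1 as reported, was 2 with robust limma and a trend, the filter on dim probe sets, a constant of 50 or the mean of probe sets, and the count of probe sets was 2 under the first 3. Both counts were 0 with the t-test of equal or unequal variances, a common median, no scaling, a constant of 1, the replicate block, *Eif2s3y* as covariate, male controls or *Cre+, Rest GTi/GTi* replicates 3 and 4 by themselves, and 0 to 1 leaving out each array. None of the 10 genes was called lower under any alternative. The causes were not tested. The replicate numbers did not pair the arrays: residuals of arrays with the same number correlated between -0.13 and 0.00676, those with other numbers between -0.0611 and 0.106, and 0 of 8 arrays correlated best with their own number. The replicate block called 0 genes of all 18193, and *Phlda3* had an adjusted p of 0.212 from limma.

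The 4 other p53 targets called higher became 2 with *Eif2s3y* as covariate, 1 with the t-test of equal variances, a constant of 1 or male controls, 0 with unequal variances, no scaling, the replicate block or *Cre+, Rest GTi/GTi* replicates 3 and 4 by themselves, and 1 to 2 leaving out each array. The median of the 10 genes, 0.08 as reported, was 0.030 with a common median, 0.14 with no scaling and 0.22 without less specific probe sets, and 0.071 to 0.13 leaving out each array. Over all genes, 39 called higher and 2 lower became 14 and 0 with the t-test of equal variances, 0 and 0 with unequal variances, and 2 and 0 with no scaling.

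Changes of sign were all in uncalled probe sets. With no scaling the log2 fold change was 0.044 for the second *Ddb2* probe set, 0.0039 for the second *Rrm2b* probe set, 0.023 for the brightest *Sesn1* probe set and 0.021 for the second *Tigar* probe set. With a common median it was -0.060 for the brightest *Ercc5* probe set, -0.0083 for the brightest *Sesn3* probe set and -0.022 for the second *Sesn3* probe set. Averaging the probe sets of a gene gave -0.0030 for *Ddb2*, 0.065 for *Sesn1* and -0.012 for *Atg7*. With *Eif2s3y* as covariate and with male controls it was -0.057 and -0.036 for the second *Ercc5* probe set, -0.025 and -0.0051 for the second *Polk* probe set, -0.27 and -0.25 for the third *Sesn1* probe set, -0.019 and -0.018 for the second *Sesn3* probe set, and 0.00052 and 0.00018 for the second *Tigar* probe set. Using *Cre+, Rest GTi/GTi* replicates 3 and 4 by themselves it was 0.12 for the second *Ddb2* probe set, -0.14 for the third *Sesn1* probe set, 0.062 for the dimmest *Sesn1* probe set and -0.0054 for the brightest *Sesn3* probe set. Leaving out each array gave -0.022 to 0.074 for the brightest *Ddb2* probe set, -0.14 to 0.036 for the second *Ddb2* probe set, -0.053 to 0.043 for the brightest *Ercc5* probe set, -0.070 to 0.15 for the second *Ercc5* probe set, -0.22 to 0.042 for the second *Rrm2b* probe set, -0.094 to 0.039 for the brightest *Sesn1* probe set, -0.056 to 0.21 for the third *Sesn1* probe set and -0.032 to 0.032 for the second *Sesn3* probe set. Of all probe sets 30.6% have a mean below 16, where a change cannot be read, as for *Dram1*.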
